A study of Mus musculus with 12 samples.

Results

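The genes described here are 9 that act in pain signalling, 5 of the neurotrophin and GDNF families (Artn, Gdnf, Bdnf, Ntf3 and Ngfr) and 4 that make prostanoids (Ptgs2, Ptgs1, Ptges and Ptgis). They were chosen by symbol, as named pain mediators, from the 18996 genes of a bulk RNA-seq count table, and all 9 passed the filter on low counts that left 14765 genes for testing. The study operated on the backs of wild-type BALB/c mice, 5 to 7 weeks old, and compared 3 groups of 4 mice. No operation mice gave intact paraspinal soft tissue. SHAM mice gave paraspinal soft and scar tissue after surgery that, by a figure legend of the study, took out paraspinal soft tissue and left the lamina in place. Laminectomy mice gave the same kind of tissue after the thoracolumbar laminae had been removed down to the dura. Tissue was taken at day 7 by the study's account, which used mice of both sexes without giving the sex of any one mouse, and the design text adds that the authors chose 3 of the 4 replicates of each group for their own tests. Which ones they chose is not given in the sources used here, so all 12 libraries were used.

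Neurotrophins and the GDNF family of ligands are secreted factors that keep sensory, sympathetic and motor neurons alive and that can sensitize pain fibres. The neurotrophins bind Trk receptor kinases and the shared receptor p75, which Ngfr encodes, whereas the GDNF family binds GFRα co-receptors that signal through Ret. Prostanoids are lipids made when phospholipases free arachidonate, a cyclooxygenase turns it into prostaglandin H2, and a terminal synthase turns that into the final product. Prostaglandin E2 and prostacyclin both lower the threshold of nociceptors and dilate vessels in inflamed tissue.

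Expression is given as CPM, a gene's share of the counts of a library, on library sizes scaled by edgeR's TMM factors. A gene was called when edgeR's quasi-likelihood test gave a Benjamini-Hochberg adjusted p below 0.05 over all genes tested together with an absolute log2 fold change above 0.5. Every adjusted p below is from that test unless another tool is named, and each fold change is followed by its standard error (SE).

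The libraries held 16802989 to 18077868 counts each. Intact and operated tissue differed widely, since the summed CPM of 6 skeletal muscle markers was 61790 to 99379.9 in No operation and only 1333 to 9108 in the operated mice, while 5 macrophage markers summed to 568 to 1591 in No operation and to 2947 to 6909 after surgery. In bulk tissue, fewer cells of a type and less RNA per cell cannot be told apart. SHAM mouse 1 stood apart from its group, with the lowest muscle sum of all 12 libraries (1333) and the highest macrophage sum (6909). It also had the highest platelet sum (571 against 180 to 275 in its group mates), made up mostly of Pf4 (458 CPM) and Ppbp (106 CPM), while the platelet membrane genes Itga2b (5.45 CPM) and Gp1ba (1.46 CPM) were lowest of SHAM in this mouse. Laminectomy mouse 2 carried the highest sums of Schwann cell markers (372), neuron markers (110) and central glia markers (95.7) of all the libraries. Laminectomy mouse 3 followed its direction, with neuron and central glia sums of 49.3 and 34.7 against at most 15.6 and 9.18 in Laminectomy mice 1 and 4. Snap25, a synaptic gene, was 63.1 and 23.7 CPM in mice 2 and 3, and at most 0.133 CPM in any other mouse. No operation mice 2 and 3 were apart too, with neutrophil sums of 1679 and 670 and cartilage and bone sums of 604 and 174, against at most 59.5 and 14.8 in No operation mice 1 and 4. The cartilage and bone sum was 682 to 2405 in Laminectomy and 2.19 to 125 in SHAM, groups that did not overlap. Between them edgeR called none of its 5 markers, while DESeq2 called Acan higher in Laminectomy.

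The start regions of 4 genes are shown because these genes carried the largest rise (Ptgs2), a rise and a fall among the neurotrophic ligands (Artn and Ntf3), and the cyclooxygenase that did not rise (Ptgs1). Each is the 250 bases before a RefSeq transcript start on the gene's own strand in GRCm38.p6, and capitals mark matches to the motifs searched. The windows are chr1:150099781-150100030 (plus strand) for Ptgs2, chr2:36230176-36230425 (plus strand) for Ptgs1, chr4:117929764-117930013 (minus strand) for Artn and chr6:126164961-126165210 (minus strand) for the downstream start of Ntf3.
Ptgs2: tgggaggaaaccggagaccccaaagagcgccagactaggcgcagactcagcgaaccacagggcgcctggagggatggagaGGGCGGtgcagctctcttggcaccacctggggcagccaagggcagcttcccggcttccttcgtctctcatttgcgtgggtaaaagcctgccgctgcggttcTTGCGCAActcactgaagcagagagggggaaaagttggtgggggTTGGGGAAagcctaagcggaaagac
Ptgs1: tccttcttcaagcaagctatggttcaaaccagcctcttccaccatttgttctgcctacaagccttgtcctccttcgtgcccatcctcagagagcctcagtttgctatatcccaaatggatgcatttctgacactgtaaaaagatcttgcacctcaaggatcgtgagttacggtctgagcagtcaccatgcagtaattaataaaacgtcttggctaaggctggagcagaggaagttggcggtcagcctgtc
Artn: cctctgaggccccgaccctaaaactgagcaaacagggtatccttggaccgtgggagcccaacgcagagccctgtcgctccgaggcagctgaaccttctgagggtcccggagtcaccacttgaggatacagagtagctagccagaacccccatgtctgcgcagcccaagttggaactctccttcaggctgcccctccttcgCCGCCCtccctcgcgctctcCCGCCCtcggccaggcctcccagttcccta
Ntf3: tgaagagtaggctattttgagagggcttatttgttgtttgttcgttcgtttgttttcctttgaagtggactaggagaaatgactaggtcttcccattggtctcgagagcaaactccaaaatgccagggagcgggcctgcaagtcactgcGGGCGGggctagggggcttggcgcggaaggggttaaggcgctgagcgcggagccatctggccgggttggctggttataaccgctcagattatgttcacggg

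Motifs of 7 kinds were searched on both strands in windows of 300 bases that also take in the first transcribed bases. These were the TATA box (TATAAA), the core of the cAMP response element, or CRE (CGTCA), the E-box (CACGTG), the GC box (GGGCGG), AP-1 (TGANTCA), C/EBP (TTNNGNAA) and the NF-kB consensus. The capitals of Ptgs2 are a GC box 170 bases and C/EBP matches 69 and 25 bases before the start. Its CRE core and its E-box overlap just after the RefSeq start used here, from which all these distances are counted. They lie within chr1:150100038-150100058 on the plus strand, the short run below, which is shown because the pair is a known regulatory element of the gene.
Ptgs2 site: ccactaCGTCACGTGgagtcc

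The Artn window held GC boxes 50 and 30 bases before the start, the Ntf3 window a GC box 101 bases before it and another 45 bases after it, outside the printed run, and the Ptgs1 window no match to any of the motifs. Among all 32851 RefSeq windows of this length, a GC box was found in 35.7%, a C/EBP match in 40.7%, the CRE core in 20.8%, a TATA box in 13.6%, an NF-kB match in 8.46%, an AP-1 match in 7.81% and the E-box in 7.15%. Of the 9 genes 8 had windows, 16 in all, of which 8 held a GC box, 5 a C/EBP match, 3 the CRE core, 2 the E-box and 1 each the TATA box, AP-1 and NF-kB. The TATA box was in a Gdnf window, 31 bases before the start and near a CRE core at 50 bases, and the Ptges window held GC boxes at 53 and 42 bases. The Ptgs2 window overlaps an exon of the divergent transcript Ptgs2os. A match describes the letters in the window and is not evidence that a factor binds there.

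Against No operation, 6 of the 9 genes were called in SHAM, beside 50.8% of all genes tested. Artn, Gdnf, Ngfr, Ptgs2 and Ptges were higher, a direction called for 25.7% of all genes, and Ntf3 was lower, as were 25.1%. In Laminectomy 5 of the 9 were called, beside 48.6% of all genes, with Artn and Ptgs2 higher (24.2% of all genes) and Ntf3, Ptgs1 and Ptgis lower (24.4% of all genes). The median log2 fold change of the 9 genes was 1.02 in SHAM and 0.50 in Laminectomy, beside -0.00 and 0.01 over all genes tested. Both comparisons use the same No operation mice, so their values are not independent of each other. Without SHAM mouse 1 the counts were 5 in SHAM and 6 in Laminectomy. Without the TMM factor they were 6 and 6, and the share of higher genes among all calls went from 50.6% to 66% in SHAM and from 49.8% to 69.9% in Laminectomy, so fold changes near 0 depend on the scaling. Nothing particular to the set was read from these counts.

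**Figure D1:**
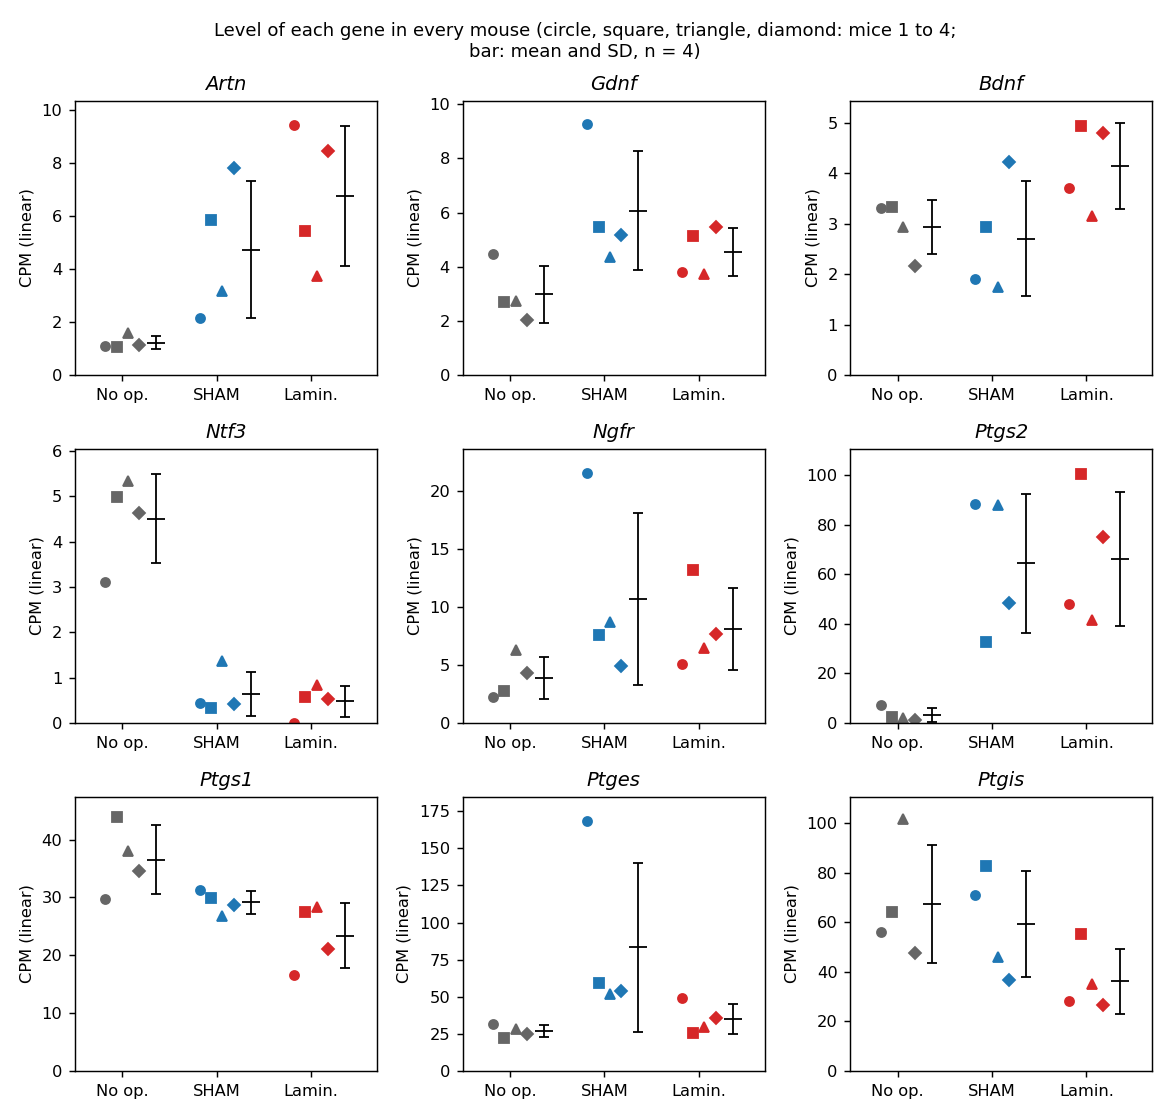
CPM (linear axis from 0) of each of the 9 genes in every mouse of the 3 groups, with bars for the mean and SD of 4 mice. Ptgs2 lies between 1.26 and 7.37 in No operation and between 32.6 and 100.4 in the operated mice, Ntf3 shows the opposite arrangement, and SHAM mouse 1 (circle) is the highest SHAM value for Ptges, Ngfr and Gdnf.

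Among the ligands, Artn encodes artemin, the GDNF family member that acts on nociceptors through GFRα3. It was 1.10, 1.07, 1.60 and 1.12 CPM in the 4 No operation mice, 2.14, 5.83, 3.18 and 7.79 CPM in SHAM, and 9.42, 5.45, 3.73 and 8.45 CPM in Laminectomy. Every operated mouse was above every No operation mouse, and the operated groups overlapped each other. Groups that did not overlap were seen for 4 of the 9 genes in SHAM and for 4 of the 9 in Laminectomy, beside 54.5% and 56% of all genes tested. By direction these were Artn, Ptgs2 and Ptges higher in SHAM (26.7% of all genes) and Ntf3 lower (27.8%), and Artn and Ptgs2 higher in Laminectomy (27%) and Ntf3 and Ptgs1 lower (29%). Artn rose in SHAM by a log2 fold change of 1.95 (SE 0.429, adjusted p = 0.00214, 3.85-fold) and in Laminectomy by 2.46 (SE 0.432, adjusted p = 0.00056, 5.50-fold). The Laminectomy against SHAM difference of Artn was 0.51 (SE 0.396, adjusted p = 0.548, 95% interval -0.35 to 1.38). Artn lies at chr4:117926162-117929763 on the minus strand of GRCm38.

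Gdnf encodes glial cell line-derived neurotrophic factor, a survival factor for motor and sensory neurons. Its levels were 4.48, 2.71, 2.73 and 2.03 CPM in No operation, 9.27, 5.46, 4.34 and 5.18 CPM in SHAM, and 3.81, 5.14, 3.73 and 5.47 CPM in Laminectomy. No operation mouse 1 fell inside the range of both operated groups, and the remaining No operation mice were below all operated mice. Gdnf rose in SHAM by 1.02 on the log2 scale (SE 0.299, adjusted p = 0.0112), and by 0.74 (adjusted p = 0.0365) without SHAM mouse 1. In Laminectomy the value was 0.60 (SE 0.298, adjusted p = 0.101), which crossed the threshold without No operation mouse 1 (0.86, adjusted p = 0.0267) and without the TMM factor (0.93, adjusted p = 0.0147). Laminectomy against SHAM gave -0.42 (SE 0.292, adjusted p = 0.509, 95% interval -1.06 to 0.22). The gene lies at chr15:7810846-7837575 on the plus strand.

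Bdnf encodes brain-derived neurotrophic factor, the TrkB ligand that sensory neurons release in the dorsal horn. It was 3.31, 3.34, 2.93 and 2.17 CPM in No operation, 1.91, 2.94, 1.75 and 4.22 CPM in SHAM, and 3.71, 4.94, 3.16 and 4.80 CPM in Laminectomy. All 3 groups overlapped. Bdnf was not called in SHAM (log2 fold change -0.12, SE 0.298, adjusted p = 0.746, 95% interval -0.77 to 0.53) or in Laminectomy (0.50, SE 0.296, adjusted p = 0.167, 95% interval -0.15 to 1.14). The sign of the SHAM value turned without SHAM mouse 1 (0.01), without SHAM mouse 3 (0.04) and without the TMM factor (0.14). The Laminectomy value passed the threshold without the TMM factor, at 0.81 (adjusted p = 0.0381). Laminectomy against SHAM was 0.62 (SE 0.295, adjusted p = 0.335, 95% interval -0.03 to 1.26). The neuron marker sum was 14.5 to 110 CPM in Laminectomy against 17.6 to 26.5 CPM in No operation, with 3 of its 5 genes under the count filter, and its part in the Bdnf values was not tested. Without Laminectomy mouse 2, which had the highest neuron sum, Bdnf was 0.40 in Laminectomy (adjusted p = 0.312). Bdnf, at chr2:109674700-109727007 on the plus strand, shares 896 exonic bases with the antisense gene Gm45346, which has no row of its own in the table. The default counting named in the study's methods does not use strand. Some deposited values are not whole and the step behind them is not given, so whether reads of the 2 genes were told apart is not known.

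Ntf3 encodes neurotrophin-3, which muscle and skin supply to proprioceptive sensory neurons. It was 3.10, 4.98, 5.33 and 4.63 CPM in No operation, 0.450, 0.321, 1.38 and 0.427 CPM in SHAM, and 0.566, 0.829 and 0.521 CPM in Laminectomy mice 2 to 4. Laminectomy mouse 1 had 0 counts, which at its depth allows up to 0.159 CPM at 3 counts (counting error only). Every operated mouse was below every No operation mouse. Ntf3 fell by 2.79 on the log2 scale in SHAM (SE 0.673, adjusted p = 0.00373) and by 3.21 in Laminectomy (SE 0.690, adjusted p = 0.00198). Without SHAM mouse 3, the highest of its group, the SHAM value was -3.47 (adjusted p = 0.00206). Laminectomy against SHAM was -0.42 (SE 0.701, adjusted p = 0.793, 95% interval -1.96 to 1.11), and its sign turned without SHAM mouse 3 (0.26, adjusted p = 0.877). The direction of the fall is that of the muscle markers, all 6 of which were lower in both operated groups, and of the 4 adipocyte markers (summed CPM 1114 to 1955 in No operation, 246 to 1263 in SHAM and 72.3 to 395 in Laminectomy). The part of lost muscle or fat in the Ntf3 values was not tested. Ntf3 lies at chr6:126101412-126166910 on the minus strand.

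The p75 receptor gene Ngfr, which Schwann cells, nerve sheath and vessel-associated cells express after injury, was 2.27, 2.77, 6.26 and 4.35 CPM in No operation, 21.6, 7.60, 8.74 and 4.96 CPM in SHAM, and 5.08, 13.2, 6.48 and 7.66 CPM in Laminectomy. The groups overlapped in both comparisons, and SHAM mouse 1 alone exceeded every other mouse. Ngfr rose in SHAM by 1.45 (SE 0.486, adjusted p = 0.0218). Without SHAM mouse 1 it was 0.86 (adjusted p = 0.0906), without No operation mouse 1 it was 1.26 (adjusted p = 0.0573) and without No operation mouse 2 it was 1.32 (adjusted p = 0.0557), so that the call depended on each of those libraries. The Ngfr call in SHAM was also lost with limma-voom and in a fit with the replicate number as a block. In Laminectomy the value was 1.05 (SE 0.484, adjusted p = 0.0802), and it crossed the threshold without SHAM mouse 1 (1.06, adjusted p = 0.0326) and without No operation mouse 3 (1.37, adjusted p = 0.046), but was 0.71 (adjusted p = 0.238) without Laminectomy mouse 2. Laminectomy against SHAM was -0.40 (SE 0.469, adjusted p = 0.699, 95% interval -1.43 to 0.63) and became 0.20 without SHAM mouse 1 (adjusted p = 0.906). The Schwann cell marker sum was highest within its group in those same high mice, at 178 CPM in SHAM mouse 1 against 17.2 to 126 CPM in the rest of that group, and 372 CPM in Laminectomy mouse 2 against 19.1 to 67.9 CPM in the others. Laminectomy mouse 2 also had the highest central glia sum, as given above. The Schwann cell sum was 84.2 to 170 CPM in No operation mice, and edgeR called none of its 6 markers in any comparison. DESeq2 called S100b higher in Laminectomy against both other groups, and limma-voom called Prx lower in Laminectomy against No operation. The part of nerve tissue in the Ngfr values was not tested. Ngfr lies at chr11:95568818-95587735 on the minus strand.

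**Figure D2:**
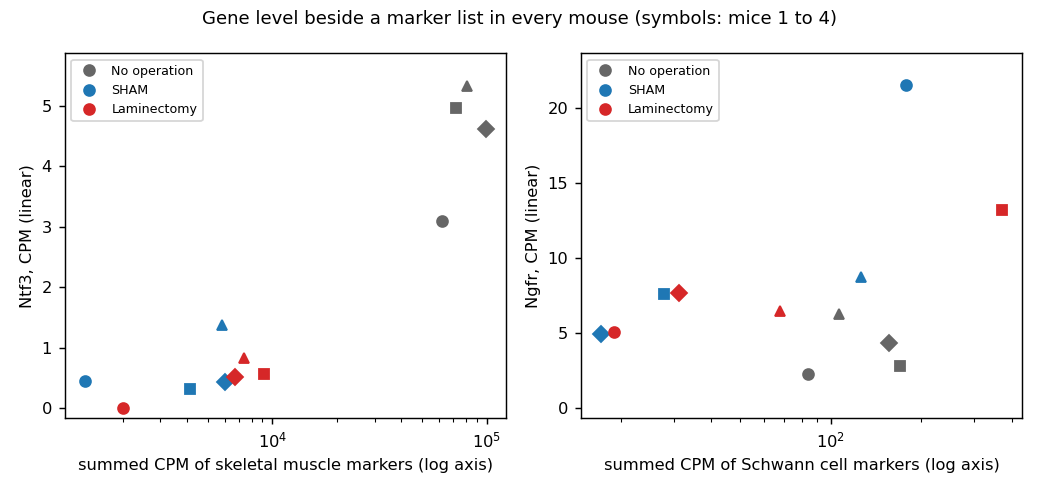
Left, Ntf3 (CPM) against the summed CPM of 6 skeletal muscle markers on a log axis, and right, Ngfr (CPM) against the summed CPM of 6 Schwann cell markers on a log axis, with 1 symbol per mouse. The No operation mice are apart at 3.10 to 5.33 CPM of Ntf3 and 61790 to 99379.9 CPM of muscle markers, and the highest Ngfr values belong to SHAM mouse 1 (21.6 CPM) and Laminectomy mouse 2 (13.2 CPM), which have the highest Schwann cell sums of all mice.

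Of the cyclooxygenases, Ptgs2 encodes the inducible enzyme COX-2, the target of the coxib analgesics. It was 7.37, 2.52, 2.00 and 1.26 CPM in No operation, 88.4, 32.6, 87.8 and 48.6 CPM in SHAM, and 48.0, 100.4, 41.3 and 75.0 CPM in Laminectomy. The lowest operated mouse was above the highest No operation mouse, and the operated groups lay in the same range. Ptgs2 rose by 4.29 on the log2 scale in SHAM (SE 0.561, adjusted p = 6.43e-05, 19.6-fold) and by 4.33 in Laminectomy (SE 0.562, adjusted p = 8.12e-05, 20.1-fold). No operation mouse 1 had the highest level of its group, and without it the changes were 5.05 and 5.09, both above the values with it. The macrophage and fibroblast sums were also higher in every operated mouse than in every No operation mouse. Of 5 macrophage markers, edgeR called 5 higher in SHAM and 4 in Laminectomy. Of 6 fibroblast markers, it called 4 higher and 1, Dcn, lower in each operated group. Of 5 neutrophil markers it called Csf3r alone, higher in SHAM. DESeq2 and limma-voom also called Cxcr2 higher in SHAM and Csf3r higher in Laminectomy. The part of these cells in the Ptgs2 values was not tested. Laminectomy against SHAM was 0.04 (SE 0.470, adjusted p = 0.975, 95% interval -0.99 to 1.07), and its sign changed when SHAM mouse 2, SHAM mouse 4, Laminectomy mouse 2 or Laminectomy mouse 4 was left out (-0.23 to 0.23 over all such fits). Ptgs2, at chr1:150100031-150108227 on the plus strand, is the gene whose overlapping CRE core and E-box are printed above.

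Ptgs1 encodes COX-1, the cyclooxygenase that most tissues make at a steady level. It was 29.8, 43.8, 38.0 and 34.6 CPM in No operation, 31.4, 29.8, 26.7 and 28.6 CPM in SHAM, and 16.6, 27.6, 28.3 and 21.1 CPM in Laminectomy. Every Laminectomy mouse was below every No operation mouse, and SHAM overlapped both groups. Ptgs1 fell by 0.64 on the log2 scale in Laminectomy (SE 0.169, adjusted p = 0.00651), whereas without the TMM factor, which moved the median of all genes up by 0.33, it was -0.33 (adjusted p = 0.143). In SHAM it was not called, at -0.33 (SE 0.168, adjusted p = 0.11, 95% interval -0.69 to 0.04). Laminectomy against SHAM was also -0.32 (SE 0.168, adjusted p = 0.383, 95% interval -0.68 to 0.05). The 5 mast cell markers, of a cell type known for Ptgs1, summed to 50.0 to 91.4 CPM in No operation, 26.0 to 74.9 CPM in SHAM and 16.9 to 27.3 CPM in Laminectomy, with 4 of the 5 called lower in Laminectomy, and their part in the Ptgs1 values was not tested. Ptgs1 lies at chr2:36230426-36252272 on the plus strand and shares 148 exonic bases with Gm43621 on the opposite strand.

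The balance of the cyclooxygenases was measured within each mouse as the log2 ratio of Ptgs2 to Ptgs1 (CPM + 0.1). It was -1.999, -4.07, -4.18 and -4.67 in No operation, 1.49, 0.13, 1.71 and 0.76 in SHAM, and 1.52, 1.86, 0.54 and 1.82 in Laminectomy. Ptgs1 had more reads than Ptgs2 in all 4 intact tissues and fewer in all 8 operated ones. The mean went from -3.73 ± 1.18 (SD, n = 4) in No operation to 1.02 ± 0.722 in SHAM and 1.44 ± 0.615 in Laminectomy. The differences of 4.75 and 5.17 each had p = 0.0286 in a two-sided exact permutation test, the smallest that 4 against 4 allows, and an adjusted p of 0.0571 over the 6 tests of both ratios, above 0.05. Laminectomy and SHAM differed by 0.41 (exact permutation p = 0.4, adjusted p = 0.48). Per kilobase of exon, mean levels were 0.718 CPM for Ptgs2 and 9.41 CPM for Ptgs1 in No operation, 14.0 and 7.50 CPM in SHAM, and 14.4 and 6.03 CPM in Laminectomy.

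**Figure D3:**
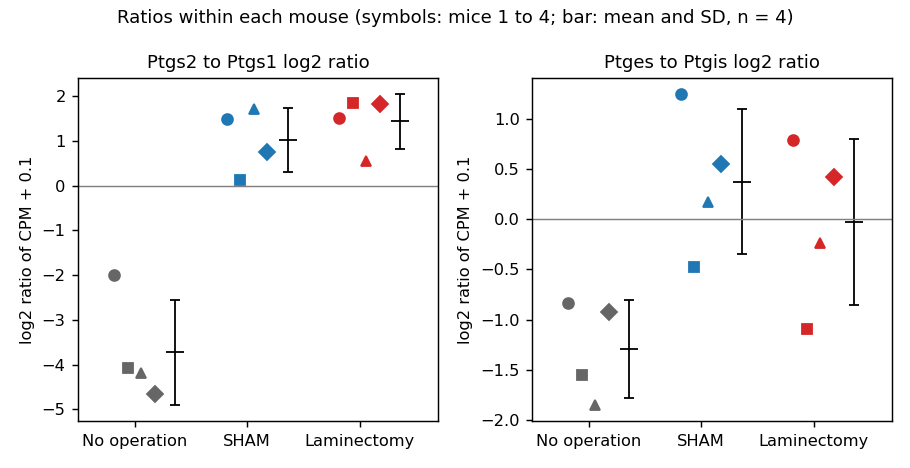
Log2 ratio of Ptgs2 to Ptgs1 (left) and of Ptges to Ptgis (right), computed on CPM + 0.1 in each mouse, with bars for the mean and SD of 4 mice per group and a line at equal CPM. The Ptgs2 to Ptgs1 ratio is -4.67 to -1.999 in No operation and 0.13 to 1.86 in the operated mice, and the Ptges to Ptgis ratio is -1.10 in Laminectomy mouse 2, inside the No operation range of -1.85 to -0.84, and -0.23 to 0.79 in the other Laminectomy mice, above it.

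Of the terminal synthases, Ptges encodes microsomal prostaglandin E synthase-1, the inducible enzyme that works with COX-2. It was 31.4, 22.0, 28.1 and 25.1 CPM in No operation, 169, 59.3, 52.0 and 53.5 CPM in SHAM, and 48.9, 25.8, 29.7 and 35.8 CPM in Laminectomy. Every SHAM mouse was above every mouse of the other groups, and Laminectomy overlapped No operation. Ptges rose in SHAM by 1.65 (SE 0.372, adjusted p = 0.00253, 3.13-fold), and by 1.05 (adjusted p = 0.00106) without SHAM mouse 1, whose 169 CPM was far above the rest of its group. In Laminectomy it was not called, at 0.39 (SE 0.366, adjusted p = 0.373, 95% interval -0.41 to 1.19). Ptges was the only gene of the 9 whose Laminectomy and SHAM mice did not overlap, beside 10.1% of all genes tested and 5.07% in this direction. The Laminectomy against SHAM difference was -1.25 (SE 0.367, adjusted p = 0.151, 95% interval -2.05 to -0.45), and -0.64 (adjusted p = 0.325) without SHAM mouse 1. DESeq2 gave the same difference an adjusted p of 0.0259 and called it. The macrophage marker sum was 3997 to 6909 CPM in SHAM and 2947 to 4923 CPM in Laminectomy, and its part in the Ptges values was not tested. Ptges lies at chr2:30889471-30929863 on the minus strand.

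Ptgis encodes prostacyclin synthase, an enzyme of vessel walls and fibroblasts. It was 56.2, 64.3, 102 and 47.8 CPM in No operation, 71.2, 82.7, 46.2 and 36.7 CPM in SHAM, and 28.2, 55.2, 34.9 and 26.7 CPM in Laminectomy. Each pair of groups overlapped. Ptgis fell by 0.90 on the log2 scale in Laminectomy (SE 0.322, adjusted p = 0.0309). That call was lost without No operation mouse 3 (-0.63, adjusted p = 0.108), without Laminectomy mouse 1 (-0.79, adjusted p = 0.0804), mouse 3 (-0.88, adjusted p = 0.0646) or mouse 4 (-0.77, adjusted p = 0.0812), and without the TMM factor (-0.58, adjusted p = 0.135). SHAM was not called at -0.19 (SE 0.319, adjusted p = 0.624, 95% interval -0.89 to 0.51), and its sign turned without No operation mouse 3 (0.08) and without the TMM factor (0.06). Laminectomy against SHAM was -0.71 (SE 0.321, adjusted p = 0.311, 95% interval -1.41 to -0.00). The summed CPM of 4 mural cell markers was 793 to 1204 in No operation, 389 to 644 in SHAM and 546 to 741 in Laminectomy, where Myh11 and Rgs5 were called lower and Pdgfrb higher. The 5 endothelial markers summed to 678 to 868 CPM in No operation, 518 to 730 CPM in SHAM and 475 to 717 CPM in Laminectomy, with Kdr and Vwf called lower in both operated groups. The fibroblast sum was 4869 to 13059 CPM in No operation and 22152 to 31598 CPM in the operated mice. Of its 6 markers, 4 were called higher in each operated group, and Dcn was called lower in both. Fap was not called in SHAM, nor Pdgfra in Laminectomy. The part of mural, endothelial and fibroblast cells in the Ptgis values was not tested. Ptgis lies at chr2:167191805-167240604 on the minus strand and shares 156 exonic bases with 1110018N20Rik on the opposite strand.

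The synthases of prostaglandin E2 and prostacyclin draw on the same substrate, and their log2 ratio (Ptges to Ptgis, CPM + 0.1) was -0.84, -1.54, -1.85 and -0.93 in No operation, 1.24, -0.48, 0.17 and 0.54 in SHAM, and 0.79, -1.10, -0.23 and 0.42 in Laminectomy. All SHAM mice were above all No operation mice, and Laminectomy mouse 2 lay inside the No operation range. The SHAM difference was 1.66 (exact permutation p = 0.0286, adjusted p = 0.0571), the Laminectomy difference 1.26 (exact permutation p = 0.0857, adjusted p = 0.129), and Laminectomy against SHAM -0.40 (exact permutation p = 0.514). No ratio difference passed 0.05 after adjustment over the 6 tests.

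Between Laminectomy and SHAM, edgeR called none of the 9 genes and 0% of all genes tested, where 2359 genes (16%) had an unadjusted p below 0.05. Ptges and Ptgis were the 2 genes of the set with such a p (0.00544 and 0.0487). DESeq2 called 696 genes there, Ptges among them, and limma-voom called none. The median log2 difference of the 9 genes was -0.40, beside 0.00 over all genes tested.

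**Figure D4:**
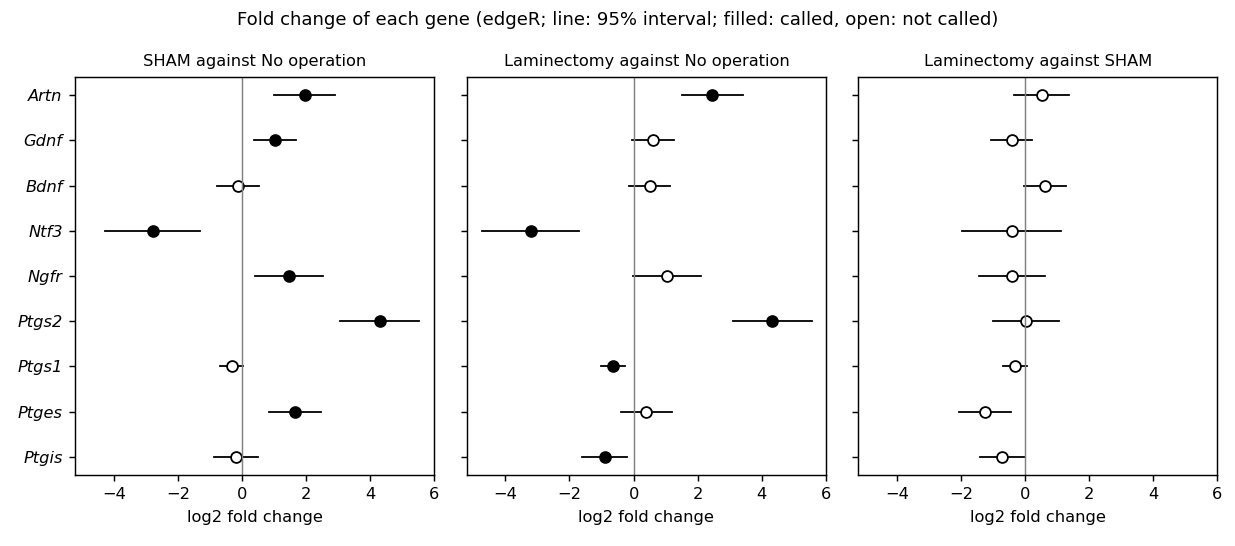
Log2 fold change of each of the 9 genes in the 3 comparisons, with 95% intervals from edgeR as lines, filled points for called genes and open points for the others. Artn and Ptgs2 are called higher and Ntf3 called lower against No operation in both operated groups, Ptges is called in SHAM and not in Laminectomy, and no point is filled for Laminectomy against SHAM.

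Levels of different genes were compared as CPM per kilobase, over all annotated exons of each gene joined. Length still enters where a tissue uses only some of those exons. In No operation the mean order was Ptgis (26.3), Ptgs1 (9.41), Ptges (6.78), Ntf3 (2.63), Ngfr (1.14), Gdnf (0.813), Ptgs2 (0.718), Artn (0.509) and Bdnf (0.472). Ptgis lay above Ptgs1 in every mouse and Ptges above Ntf3, while all other neighbours in that order overlapped between mice. In SHAM the order was Ptgis (23.1), Ptges (21.2), Ptgs2 (14.0), Ptgs1 (7.50), Ngfr (3.11), Artn (1.97), Gdnf (1.65), Bdnf (0.435) and Ntf3 (0.376), where the neighbours that stood apart were Ptgs1 and Ngfr, and Gdnf and Bdnf. In Laminectomy the order was Ptgs2 (14.4), Ptgis (14.1), Ptges (8.91), Ptgs1 (6.03), Artn (2.81), Ngfr (2.35), Gdnf (1.24), Bdnf (0.667) and Ntf3 (0.279), and those apart were Ptgs1 and Artn, Gdnf and Bdnf, and Bdnf and Ntf3. The mean of Ntf3 was thus the highest of the 4 ligands in intact tissue and the lowest in both operated groups, and that of Ptgs2 went from rank 7 of the 9 genes to rank 3 in SHAM and rank 1 in Laminectomy.

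Genes with the most similar profile were found over the 12 mice from log2 CPM, centred and divided by the standard deviation of each gene, as the 3 with the smallest root mean square difference, where the median gene was at 1.33 to 1.37. Nearest to Ptgs2 were Rap2a (0.179), Il6 (0.180), the cytokine interleukin 6, and Kcnk6 (0.197). Nearest to Ptges were Nos2 (0.219), the inducible nitric oxide synthase, Fbxl5 (0.237) and Stat6 (0.240), and SHAM mouse 1 was also the highest mouse for Nos2, at 369 CPM against 37.7 to 76.7 CPM in the other SHAM mice. Nearest to Ntf3 were Car3 (0.126), an abundant carbonic anhydrase of muscle and fat, Gpd1 (0.162) and Myoc (0.163). Nearest to Artn were Snrpf (0.222), Ssbp3 (0.265) and Cd2bp2 (0.267), and to Gdnf Rdh10 (0.285), Ier3 (0.324) and Chic2 (0.328). Bdnf, Ngfr, Ptgs1 and Ptgis had no gene under 0.37, with Arl2bp (0.384), Avl9 (0.413), Slc4a4 (0.374) and Ccdc149 (0.374) the closest. These distances describe only the shape of the profiles.

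The other genes of these pathways were taken from fixed lists. Each count of called genes in a list stands beside 50.8% of all genes called in SHAM (25.7% higher and 25.1% lower) and 48.6% in Laminectomy (24.2% higher and 24.4% lower), and nothing particular to a list was read from it. Of the other ligands reported here, 2 passed the filter, Ntf5 and Nrtn, and both were lower in both operated groups. Ntf5, which encodes neurotrophin-4, another TrkB ligand, went with Ntf3. It was 3.65 to 6.73 CPM in No operation, 0.112 to 0.583 CPM in SHAM and 0.159 to 0.673 CPM in Laminectomy. SHAM mouse 1 held 2 counts and Laminectomy mouse 1 held 3 counts, so the size of the fall is uncertain. As fitted, Ntf5 fell by 4.11 in SHAM (SE 0.515, adjusted p = 4.93e-05) and by 3.70 in Laminectomy (SE 0.498, adjusted p = 9.92e-05). Without SHAM mouse 3, the highest SHAM mouse for Ntf5 as for Ntf3, the SHAM value was -4.73 (adjusted p = 5.54e-05).

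Of the neurotrophin receptors and co-receptors reported here, 7 were tested, with 1 higher and 1 lower in SHAM and 1 higher and 2 lower in Laminectomy. Ntrk2, which encodes TrkB, was 62.9 to 113 CPM in No operation and 1.59 to 27.4 CPM in Laminectomy, where it fell by 2.37 (SE 0.723, adjusted p = 0.0144). SHAM mice 1 to 4 had 68.4, 17.2, 56.2 and 12.3 CPM of Ntrk2, beside Schwann cell sums of 178, 27.8, 126 and 17.2 CPM, and the value there was -1.22 (SE 0.695, adjusted p = 0.146). In Laminectomy, mouse 2 was highest for both Ntrk2 and the Schwann cell sum and mouse 1 lowest for both, and the part of nerve tissue in the Ntrk2 values was not tested. Ntrk3, the TrkC receptor of Ntf3, was not called in SHAM (-0.79, adjusted p = 0.24) or in Laminectomy (0.13, adjusted p = 0.858). Sorcs2, a co-receptor of p75, rose by 1.64 in SHAM (adjusted p = 0.000885) and by 1.73 in Laminectomy (adjusted p = 0.000706), and Sort1, the sortilin gene, fell by 1.12 in SHAM (adjusted p = 0.00324) and by 1.13 in Laminectomy (adjusted p = 0.00331).

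All 7 GDNF family receptor genes were tested, with 4 higher in SHAM (25.7% of all genes) and 3 higher and 2 lower in Laminectomy (24.2% and 24.4% of all genes). Ret, the signalling kinase, fell by 0.88 in Laminectomy (SE 0.293, adjusted p = 0.0217), a call lost in 5 of 23 alternatives, among them those without No operation mouse 4, Laminectomy mouse 1 or Laminectomy mouse 3 (highest adjusted p over all alternatives 0.126). Gfra1, the co-receptor of Gdnf, rose by 0.83 in SHAM (SE 0.274, adjusted p = 0.0208), a call lost without No operation mouse 4 or SHAM mouse 3 (highest adjusted p 0.058). Gfra3, the co-receptor of Artn, was 0.758 to 2.00 CPM in No operation, 0 to 0.955 CPM in SHAM and 0.0529 to 0.771 CPM in Laminectomy. Gfra3 fell by 2.06 in Laminectomy (SE 0.815, adjusted p = 0.0464), but 11 of 22 alternatives, 8 of which left out a single mouse (No operation mouse 2, 3 or 4, SHAM mouse 2 or 3, or Laminectomy mouse 1, 3 or 4), lost that call (adjusted p up to 0.113). Without Laminectomy mouse 2 it was -2.85 (adjusted p = 0.0211). Ncam1, an adhesion molecule that also binds Gdnf, had the largest rise in Laminectomy, at 1.85 (adjusted p = 0.0003), and Sdc3, a syndecan, in SHAM, at 1.74 (adjusted p = 0.000186). Among 4 convertases that cleave proneurotrophins, 3 were higher and 1 lower in SHAM (25.7% and 25.1% of all genes), and 1 higher and 1 lower in Laminectomy (24.2% and 24.4%). Pcsk5 rose by 2.43 in SHAM (adjusted p = 0.00153), and Pcsk6 fell by 2.17 in SHAM (adjusted p = 2.84e-05) and by 1.82 in Laminectomy (adjusted p = 9.95e-05). Furin, the convertase of the secretory pathway, was the one called higher in Laminectomy, at 0.92 (SE 0.221, adjusted p = 0.00381).

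**Figure D5:**
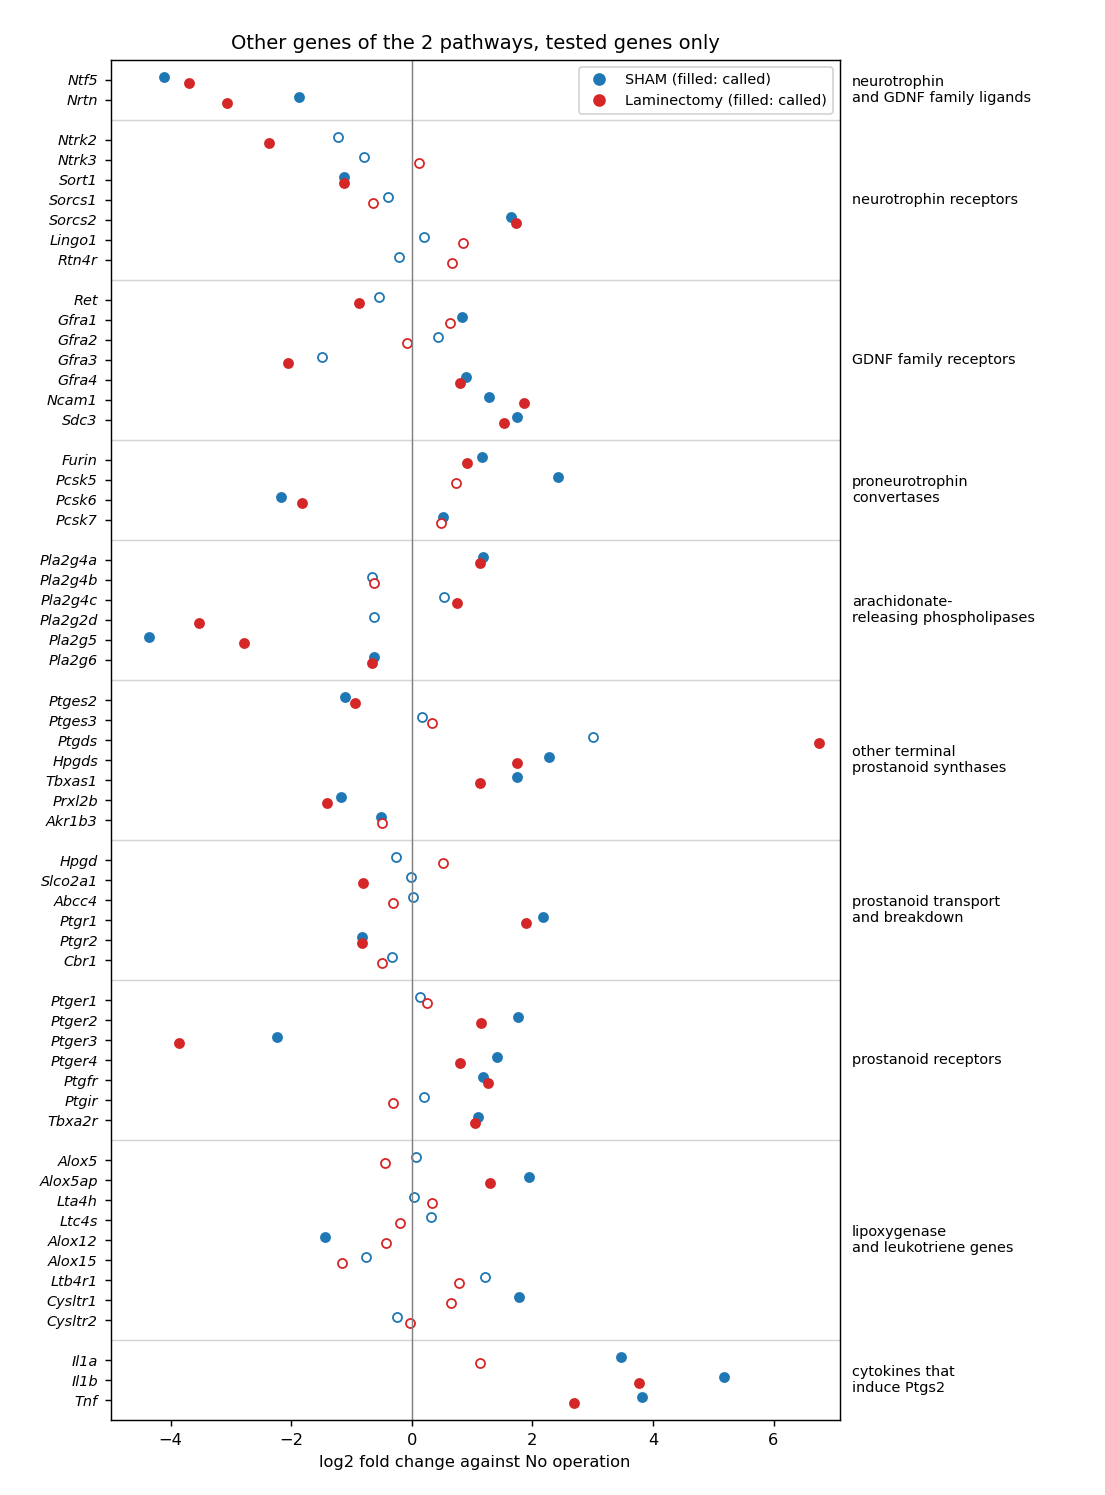
Log2 fold change against No operation of tested genes from 10 fixed pathway lists in SHAM (blue) and Laminectomy (red), filled where called. Prostanoid receptors are called higher for 4 of 7 genes and lower for Ptger3 in both groups, beside 25.7% and 24.2% of all genes called higher in SHAM and Laminectomy, the cytokine gene Il1b is called higher in both, and the Ptgds points are fitted values against No operation levels under 3 counts, not measured folds.

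Upstream of the cyclooxygenases, 6 phospholipase genes were tested, with 1 higher and 2 lower in SHAM and 2 higher and 3 lower in Laminectomy. Pla2g4a, the cytosolic phospholipase that frees arachidonate, rose by 1.18 in SHAM (SE 0.313, adjusted p = 0.00646) and by 1.13 in Laminectomy (SE 0.313, adjusted p = 0.0087). Pla2g5 fell by 4.37 in SHAM (adjusted p = 0.000287), and Pla2g2d fell by 3.53 in Laminectomy (adjusted p = 0.00107). Levels there were low, at 0.0535 to 0.741 CPM for Pla2g5 and 0.417 to 0.518 CPM for Pla2g2d, so the sizes of these falls are uncertain. The 3 cytokine genes fixed as inducers of Ptgs2 were all higher in SHAM, and 2 were higher in Laminectomy, beside 25.7% and 24.2% of all genes. Il1b was 0.140 to 9.19 CPM in No operation, 80.4 to 260.4 CPM in SHAM and 25.2 to 88.6 CPM in Laminectomy, and rose by 5.17 (SE 0.806, adjusted p = 0.000214) and by 3.77 (SE 0.762, adjusted p = 0.00137).

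Beside Ptges and Ptgis, 7 terminal synthase genes were tested, with 2 higher and 3 lower in SHAM and 3 higher and 2 lower in Laminectomy, beside 50.8% and 48.6% of all genes called either way. Hpgds, the haematopoietic prostaglandin D synthase, rose by 2.28 in SHAM (SE 0.292, adjusted p = 5.72e-05) and by 1.75 in Laminectomy (SE 0.288, adjusted p = 0.000372). Ptgds, the lipocalin-type synthase known from the meninges, was 0, 0, 0.0666 and 0.140 CPM in No operation, 0, 0.321, 0.953 and 0.534 CPM in SHAM, and 0.582, 13.9, 9.32 and 0.990 CPM in Laminectomy. It was called higher in Laminectomy (adjusted p = 0.00181), with the highest levels in mice 2 and 3, and no fold is given since all No operation mice were under the floor of 3 counts. The adjusted p was 0.00468 without Laminectomy mouse 2 and 0.00447 without Laminectomy mouse 3. The same mice had the highest central glia sums of their group (95.7 and 34.7 CPM against at most 9.18 CPM in mice 1 and 4), beside 51.8 to 64.9 CPM in No operation and 8.77 to 40.4 CPM in SHAM. In No operation and SHAM that sum was almost all Aldh1l1, at 51.6 to 64.7 CPM and 8.56 to 40.0 CPM, beside 7.57 to 11.2 CPM in Laminectomy. Of the 5 central glia markers, Gfap was called higher and Aldh1l1 lower in Laminectomy and 3 were under the count filter, and their part in the Ptgds values was not tested. Prxl2b, the prostaglandin F synthase gene, fell by 1.18 in SHAM (adjusted p = 0.000614) and by 1.40 in Laminectomy (adjusted p = 0.000232). Among 6 transport and breakdown genes, 1 was higher and 1 lower in SHAM and 1 higher and 2 lower in Laminectomy. Ptgr1, a prostaglandin reductase, rose by 2.18 in SHAM (adjusted p = 7.87e-05) and by 1.90 in Laminectomy (adjusted p = 0.00023), and Ptgr2, another reductase, fell by 0.84 in SHAM (adjusted p = 3.92e-05) and by 0.82 in Laminectomy (adjusted p = 5.45e-05). Of 9 lipoxygenase and leukotriene genes, which draw on the same arachidonate, 2 were higher and 1 lower in SHAM and 1 was higher in Laminectomy, Alox5ap with 1.94 (adjusted p = 0.000366) and 1.30 (adjusted p = 0.00462). Alox12, a lipoxygenase of platelets and skin, fell by 1.44 in SHAM (adjusted p = 0.0332), a call lost in 8 of 23 alternatives, among them those without No operation mouse 2 or 3 or SHAM mouse 1 or 2 (highest adjusted p 0.141). Of the 5 platelet markers, Gp1ba was called lower in SHAM (-2.33, adjusted p = 0.000298) and Pf4 higher (3.15, adjusted p = 9.01e-05), while Itga2b (-0.997, adjusted p = 0.14), Gp9 (-2.04, adjusted p = 0.0712) and Ppbp (0.78, adjusted p = 0.486) were not called. No operation mouse 2 was the highest of all mice for Alox12 (21.1 CPM), Gp1ba (14.5 CPM), Itga2b (42.6 CPM) and Gp9 (4.85 CPM), and had the highest neutrophil and cartilage and bone sums of its group, with No operation mouse 3 next in those sums and in Alox12 (11.7 CPM). The part of platelets, neutrophils or bone in the Alox12 values was not tested.

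The receptors of the prostanoids were called in 5 of 7 tested genes in each operated group, 4 higher and 1 lower, beside 50.8% of all genes called in SHAM (25.7% higher) and 48.6% in Laminectomy (24.2% higher). Among the prostaglandin E2 receptors, Ptger2 was 1.40 to 2.52 CPM in No operation, 3.91 to 11.8 CPM in SHAM and 3.39 to 5.03 CPM in Laminectomy, and rose by 1.76 (SE 0.367, adjusted p = 0.00154) and by 1.15 (SE 0.365, adjusted p = 0.0177). The Laminectomy call of Ptger2 was lost without No operation mouse 3 or No operation mouse 4 (highest adjusted p 0.0518). Ptger4 rose by 1.42 in SHAM (SE 0.257, adjusted p = 0.000606) and by 0.81 in Laminectomy (SE 0.255, adjusted p = 0.0174). Ptger3 went the other way, from 18.6 to 25.4 CPM in No operation to 1.01 to 11.02 CPM in SHAM and 0.159 to 3.11 CPM in Laminectomy, and fell by 2.23 (SE 0.718, adjusted p = 0.0179) and by 3.86 (SE 0.784, adjusted p = 0.00141). SHAM mouse 3 held the highest Ptger3 level of the operated mice, and without it the SHAM value was -3.15 (adjusted p = 0.00317), while without Laminectomy mouse 3 the Laminectomy value was -4.51 (adjusted p = 0.00162). Ptger3 was 4.33, 1.93, 11.02 and 1.01 CPM in SHAM mice 1 to 4, beside adipocyte sums of 482, 246, 1263 and 320 CPM, and the part of fat in its values was not tested. Ptger2 and Ptger4 encode receptors that raise cAMP, and Ptger3 one that lowers it. Ptgfr, the receptor of prostaglandin F2α, had the largest rise of the list in Laminectomy, at 1.27 (SE 0.263, adjusted p = 0.00163). Ptger1 was 6.52 to 10.97 CPM over all 12 mice and was not called (0.13 in SHAM, adjusted p = 0.501, and 0.25 in Laminectomy, adjusted p = 0.203). Ptgir, the prostacyclin receptor, was 10.5 to 15.9 CPM in No operation, 8.68 to 20.5 CPM in SHAM and 7.92 to 13.8 CPM in Laminectomy, and was not called (0.20, adjusted p = 0.527, and -0.31, adjusted p = 0.334).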

How the data were processed

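Per the labels, polyA RNA of paraspinal tissue from 12 mice was made into stranded, paired-end libraries, and the submitters' processing notes name STAR 2.6.1b, featureCounts 2.0.1, DESeq2 1.30.1 and the GRCm38 (mm10) build. The authors deposited 1 table of estimated counts per gene and sample, not normalized, of which 10.2% of values, in 2933 genes, are not whole; these were rounded, by at most 0.5. No row lacked a gene name. The study's methods name featureCounts at its defaults, which ignore strand and leave out reads overlapping several genes, and the step behind the fractional values is not given in the sources used here.

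Groups were taken from the treatment label, and the design text calls the 4 samples of a group biological replicates. Lowly expressed genes were removed by filterByExpr (14765 of 18996 kept), libraries were scaled by TMM, and 1 quasi-likelihood model over all 12 samples was fitted in edgeR 4.0.16 (R 4.3.3) without covariates. Ratios were tested by two-sided exact permutation (scipy 1.17.1, pseudocount 0.1 CPM). All of the 9 genes passed the filter, so the permutation test planned for filtered genes was not run. No 2 libraries of the same group agreed within sampling noise. The code was tested on simulated data. Alternatives were DESeq2 1.42.0, limma-voom (limma 3.58.1), other scaling, filters and thresholds, a robust fit, unrounded values, a replicate block and leaving out each mouse.

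The 9 genes and all lists were chosen with earlier results of these data known. Beside the 9, genes were named by rule: per list the called genes with the largest increase and decrease in SHAM and in Laminectomy, the receptors and ligands of the 9, and their 3 nearest profiles. Some genes of the lists are not reported here. Depth was 16802989 to 18077868 counts, and the biological coefficient of variation was 28.3%. Coordinates are from GENCODE vM21 (GRCm38), and start regions from RefSeq (GRCm38.p6).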

Additional observations from a re-analysis of the deposited data

Results flagged for a closer look

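Of 33 groups of 4 mice tested, 3 held a mouse that stood far from the other 3 by Dixon's criterion, which chance meets in about 1 of 20 groups. Ptges was 169 CPM in SHAM mouse 1, where the other SHAM mice had 52.0 to 59.3 CPM. Ntf3 was 1.38 CPM in SHAM mouse 3, where the other SHAM mice had 0.321 to 0.450 CPM, and that mouse also had the highest adipocyte marker sum of its group (1263 CPM against 246 to 482 CPM). Artn was 1.60 CPM in No operation mouse 3, where the other No operation mice had 1.07 to 1.12 CPM, all below every operated mouse.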

How the results depend on the processing

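Each of 27 comparisons of a gene between groups was recomputed under 23 alternatives, except that Ntf3 was not tested where at least 10 counts were required in every sample. In 15 of the 27 no alternative changed the direction or the call, and of 618 values 586 kept both, 13 lost a call, 8 gained one and 11 changed sign. Signs changed only for values that were not called: Bdnf in SHAM (0.14 without the TMM factor; -0.41 to 0.044 leaving out single mice), Ptgis in SHAM (0.063 and -0.39 to 0.076), and, against SHAM, Laminectomy values of Ntf3 (-0.81 to 0.26), Ngfr (-0.74 to 0.20) and Ptgs2 (-0.23 to 0.23). With an absolute log2 fold change above 1 required, calls fell to 4589 genes in SHAM and to 4323 genes, 3 of the 9 among them, in Laminectomy. DESeq2 called 696 genes, 1 of the 9, between Laminectomy and SHAM, and the cause was not tested. The TMM factor moved the median of all genes by most (0.25 in SHAM and 0.33 in Laminectomy without it), and Bdnf, Gdnf and Ngfr were then called higher in Laminectomy while Ptgs1 and Ptgis were not called. Leaving out single mice, 5 to 6 of the 9 genes were called in SHAM and 4 to 6 in Laminectomy, and 6966 to 7642 and 6534 to 7416 genes overall. With the replicate block, 7442, 7153 and 0 genes and 5, 5 and 0 of the 9 were called, and Ngfr in SHAM was lost (1.37, adjusted p = 0.0667, edgeR), as with limma-voom (1.32, adjusted p = 0.0527). The replicate numbers pair nothing in the labels: same-numbered samples correlated at -0.227 to 0.349, above 0.1 in 7 of 12 pairs, and 10 of 24 best matches had the same number. No ratio changed direction, and without 1 mouse of the groups compared the exact test cannot give p under 0.0571, so those fits say nothing on passing 0.05. Low counts limit Ntf3, Artn, Bdnf and Gdnf, all under 10 CPM, and, of the listed genes, Ntf5, Gfra3, Pla2g5 and Pla2g2d in operated mice.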
